A study of Drosophila melanogaster with 9 samples.

Results

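The Y-linked fertility genes of Drosophila melanogaster described here are 10 protein-coding genes of the Y chromosome, taken by their symbols (kl-2, kl-3, kl-5, CCY, ORY, PRY, WDY, Ppr-Y, Pp1-Y1 and Pp1-Y2) from the 17874 genes of the deposited count table. All 10 were found there. Total RNA of blood cells (hemocytes) bled from third-instar larvae was sequenced after removal of ribosomal RNA, in 9 libraries of 300 larvae each. The 3 groups of 3 biological replicates were the strain W1118 as control, larvae of the genotype UAS-BCR-ABLP210, and larvae of the genotype UAS-BCR-ABLT315I, called p210 and T315I here. BCR-ABL is the human fusion kinase of chronic myeloid leukaemia, and T315I is its form with a changed kinase domain that imatinib does not bind. UAS is a promoter that needs a separate driver. The driver, the cells it acts in and the sex of the larvae are not given in the labels, and the control is named by its strain alone, so the transgene and the strain background cannot be told apart. Stocks were kept for the experiments at 25 °C.

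As background, the fly Y chromosome carries few protein-coding genes, and most of them are needed only to make motile sperm. They are transcribed in primary spermatocytes, the growing germ cells of the testis that precede meiosis, and several have enormous introns. The testis of a male third-instar larva already holds many primary spermatocytes and lies embedded in the fat body, while females have no Y chromosome. Hemocytes are not known as a site of expression of these genes.

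Every one of the 10 genes had counts in all 3 control libraries, and all were at a lower level in both transgene groups. Counts per M counts of the library (CPM, scaled by edgeR's TMM factors) summed over the 10 genes were 225.7, 704 and 305 in control replicates 1 to 3, between 68.7 and 83.2 in the p210 libraries and between 108.2 and 119.5 in the T315I libraries. The lowest control library thus stood above every transgene library, and the control libraries differed from one another more than the transgene libraries did. In raw counts the sums were 1223, 6382 and 3225 in the control, 1091 to 1216 in p210 and 1533 to 1781 in T315I. Total depth was 5.40 to 9.84 M counts in the control, 14.48 to 18.16 M in p210 and 13.86 to 15.72 M in T315I. In bulk RNA, fewer cells of a type and less RNA per cell cannot be told apart.

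The counts of these genes cover introns as well as exons. All 1204 protein-coding genes whose span lies wholly inside introns of other genes were at 0 in every library, 836 of them with the host gene on the opposite strand only, against 323 of 7266 genes that overlap no other gene. Reads were therefore assigned over whole gene spans without regard to strand. For kl-3 the exons make up 6.12% of the span (chromosome Y, 336381 to 563165, plus strand, dm6), for WDY 1.58% (2273422 to 2487777, plus strand) and for Ppr-Y 0.689% (1636574 to 1884846, plus strand). The phosphatase genes Pp1-Y1 (9833 to 10786, plus strand) and Pp1-Y2 (3539437 to 3540722, minus strand) have a single exon and no intron. How many counts of the other genes came from introns cannot be read from the table. No exon base of the 10 genes is shared with another annotated gene, and at least 99.6% of each span is free of other genes listed in the count table.

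**Figure D1:**
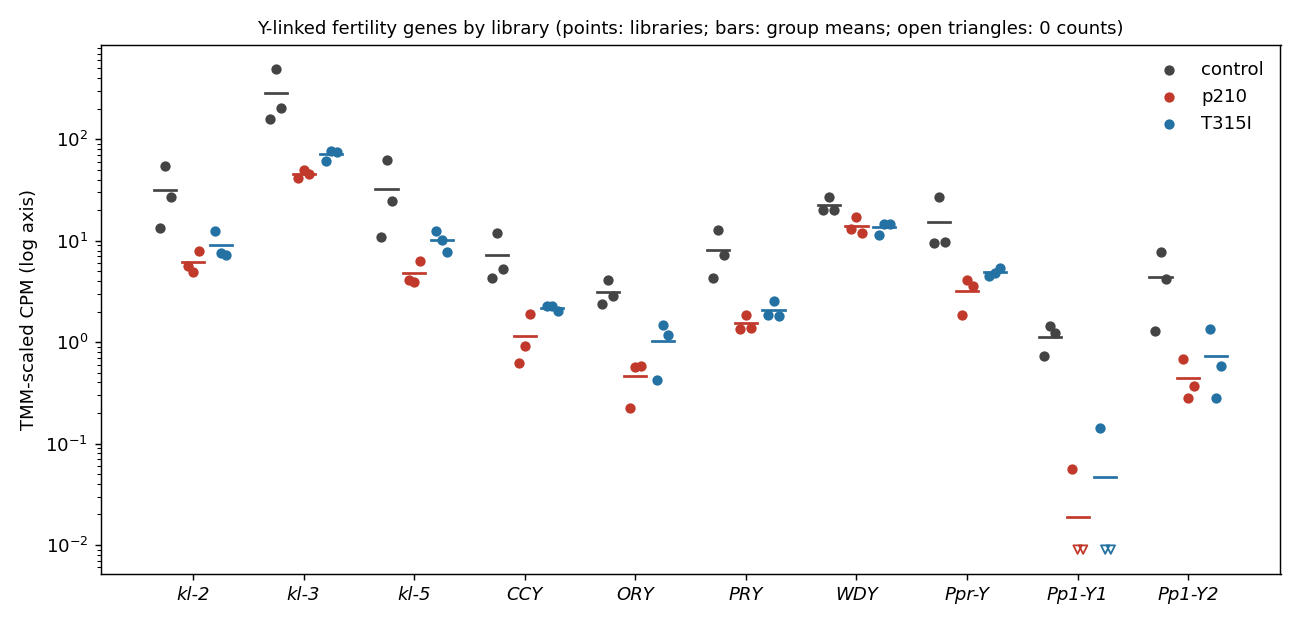
TMM-scaled CPM (log axis) of each Y-linked fertility gene in each library, with points for libraries, bars for group means and open triangles for libraries with 0 counts. All control points of kl-3 (158.5 to 497 CPM) lie above all transgene points, WDY shows the smallest distance between groups, and Pp1-Y1 is at 0 in 4 transgene libraries.

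The first group of members encodes dynein heavy chains of the sperm tail, the motor proteins that bend the axoneme. kl-3 was by far the most counted gene of the set, with 859, 4503 and 2144 counts in control replicates 1 to 3, 730, 699 and 627 in p210, and 872, 1079 and 1155 in T315I. Scaled for depth these were 158.5, 497 and 203 CPM in the control, 41.2, 49.5 and 45.9 in p210 and 61.6, 75.9 and 75.3 in T315I. No control library overlapped a transgene library, and control replicate 2 stood well above the other control libraries. The mean of the control was 286 ± 184 CPM, that of p210 45.5 ± 4.13 and that of T315I 70.9 ± 8.11 (SD, n = 3 each). kl-3 was lower in p210 by a log2 fold change of -2.65 ± 0.38 (SE; edgeR adjusted p = 0.0013) and in T315I by -2.01 ± 0.37 (edgeR adjusted p = 0.0045). Without control replicate 2 these values were -1.99 and -1.35, and both calls held.

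kl-5 had 59, 561 and 263 counts in the control, 72, 55 and 86 in p210 and 177, 144 and 120 in T315I. This was 10.9, 61.9 and 24.9 CPM in the control, 4.07, 3.89 and 6.29 in p210 and 12.5, 10.1 and 7.83 in T315I. The p210 libraries lay below all control libraries, whereas control replicate 1 lay below T315I replicate 1. The log2 fold change was -2.78 ± 0.55 in p210 (edgeR adjusted p = 0.00279) and -1.69 ± 0.52 in T315I (edgeR adjusted p = 0.0246). The T315I call was lost without control replicate 2 (-0.83, edgeR adjusted p = 0.116), and the p210 value was then -1.93.

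kl-2 had 73, 490 and 284 counts in the control, 100, 70 and 109 in p210 and 175, 107 and 112 in T315I. In CPM the control libraries were at 13.5, 54.1 and 26.9, the p210 libraries at 5.65, 4.96 and 7.98, and the T315I libraries at 12.3, 7.52 and 7.30. The gap to the control was narrowest between control replicate 1 and T315I replicate 1, with no overlap. kl-2 was lower by -2.35 ± 0.47 in p210 (edgeR adjusted p = 0.00285) and by -1.80 ± 0.46 in T315I (edgeR adjusted p = 0.0116). Without control replicate 2 these values were -1.72 and -1.17 and still passed the test.

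The dynein heavy chain genes had exons of nearly equal summed length (13386, 13882 and 13680 bases for kl-2, kl-3 and kl-5), so that their levels can be set side by side per kb of exon. In the control, kl-3 was at 20.6 ± 13.2 CPM per kb of exon, against 2.35 ± 1.54 for kl-2 and 2.38 ± 1.93 for kl-5. kl-3 was above kl-5 on this scale in 9 of 9 libraries. Per kb of gene span, the scale that matches how the reads were assigned, the control levels were 1.26 ± 0.81 for kl-3, 0.345 ± 0.227 for kl-2 and 0.283 ± 0.229 for kl-5. The control ranges of kl-2 and kl-5 overlapped on both scales. Within a library, kl-2 was above kl-5 per kb of span in 3 of 3 control libraries. Per kb of exon, kl-5 was above kl-2 in 1 of 3.

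The protein phosphatase genes had few counts. Pp1-Y1 and Pp1-Y2 encode testis-type catalytic subunits related to protein phosphatase 1, and reads could be shared with other genes of that family. Pp1-Y1 had 4, 13 and 13 counts in the control, 1, 0 and 0 in p210 and 2, 0 and 0 in T315I. Over each group, control libraries held 54.5 times as much as p210 libraries (95% exact interval for counting error 9.06 to 2220) and 26.2 times as much as T315I libraries (6.65 to 226). The edgeR adjusted p was 0.0022 for p210 and 0.00572 for T315I, but Pp1-Y1 passed the filter on low counts only through the control libraries. A lower level was thus built into its being tested. The fitted fold of so few counts depends on the prior count and is not given. A count of 0 allows a level of up to 0.191 to 0.207 CPM in replicates 2 and 3 of p210 and T315I. The gene was thus not detectable in 4 of 6 transgene libraries.

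Pp1-Y2 had 7, 70 and 44 counts in the control, 12, 4 and 5 in p210 and 19, 4 and 9 in T315I. The p210 libraries (0.283 to 0.678 CPM) were below all control libraries (1.29, 7.72 and 4.17 CPM), while T315I replicate 1 (1.34 CPM) was above control replicate 1. The log2 fold change was -3.28 ± 0.74 in p210 (edgeR adjusted p = 0.00503) and -2.59 ± 0.71 in T315I (edgeR adjusted p = 0.0157). Pp1-Y2 also passed the filter on low counts through the control libraries, so a lower level was built into its being tested. Without control replicate 2 the T315I call was lost (-1.93, edgeR adjusted p = 0.0627) and p210 was at -2.63. Without T315I replicate 1 the T315I value was -3.33. Pp1-Y1 and Pp1-Y2 have no introns, so their lower counts lie in exons.

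The remaining genes encode other proteins of the male germ line. CCY encodes a coiled-coil protein and PRY a protein related to polycystin channels. CCY had 23, 109 and 56 counts in the control (4.24, 12.0 and 5.30 CPM), against 0.622 to 1.90 CPM in p210 and 2.02 to 2.26 CPM in T315I. PRY had 23, 115 and 77 counts in the control (4.24, 12.7 and 7.29 CPM), against 1.36 to 1.84 CPM in p210 and 1.83 to 2.53 CPM in T315I. For both genes no control library overlapped a transgene library. The log2 fold changes in p210 were -2.66 ± 0.53 for CCY and -2.41 ± 0.43 for PRY (edgeR adjusted p = 0.0028 and 0.00196). In T315I they were -1.73 ± 0.50 and -1.97 ± 0.42 (edgeR adjusted p = 0.019 and 0.00658), and without control replicate 2 CCY was not called (-1.14, edgeR adjusted p = 0.0837). CCY in T315I was also lost on leaving out any 1 T315I library (edgeR adjusted p = 0.0527 to 0.0657), and in p210 it was at -2.07 without control replicate 2.

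ORY had 13, 37 and 30 counts in the control (2.40, 4.08 and 2.84 CPM), 0.226 to 0.585 CPM in p210 and 0.423 to 1.48 CPM in T315I. Ppr-Y had 52, 242 and 102 counts in the control (9.60, 26.7 and 9.66 CPM), 1.86 to 4.11 CPM in p210 and 4.52 to 5.35 CPM in T315I. Neither gene showed overlap between control and transgene libraries. ORY was at -2.77 ± 0.56 and Ppr-Y at -2.27 ± 0.46 in p210 (edgeR adjusted p = 0.00297 and 0.0032). In T315I they were at -1.60 ± 0.51 and -1.65 ± 0.45 (edgeR adjusted p = 0.0283 and 0.0156). ORY passed the filter on low counts through the control libraries, so a lower level was built into its being tested. Both T315I calls were lost without control replicate 2 (-1.35 and -0.97, edgeR adjusted p = 0.0965 and 0.062), and Ppr-Y in p210 was then at -1.60.

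WDY, which encodes a WD-repeat protein, stood apart from the other members. It had 110, 242 and 212 counts in the control, 229, 242 and 162 in p210 and 160, 208 and 226 in T315I. Scaled for depth these were 20.3, 26.7 and 20.1 CPM in the control, 12.9, 17.1 and 11.9 in p210 and 11.3, 14.6 and 14.7 in T315I. The control libraries still lay above all transgene libraries, but the mean of the control (22.4 ± 3.76 CPM) was only 1.60 times that of p210 (14.0 ± 2.79) and 1.65 times that of T315I (13.6 ± 1.96). The log2 fold changes were -0.68 ± 0.21 in p210 (edgeR adjusted p = 0.0198) and -0.72 ± 0.21 in T315I (edgeR adjusted p = 0.0188). The p210 call was lost without control replicate 2 (-0.53, edgeR adjusted p = 0.0678), without p210 replicate 1 (0.0604) or without p210 replicate 3 (0.0662), and the T315I call without control replicate 2 (-0.57, 0.0648) or T315I replicate 1 (-0.61, 0.0695).

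**Figure D2:**
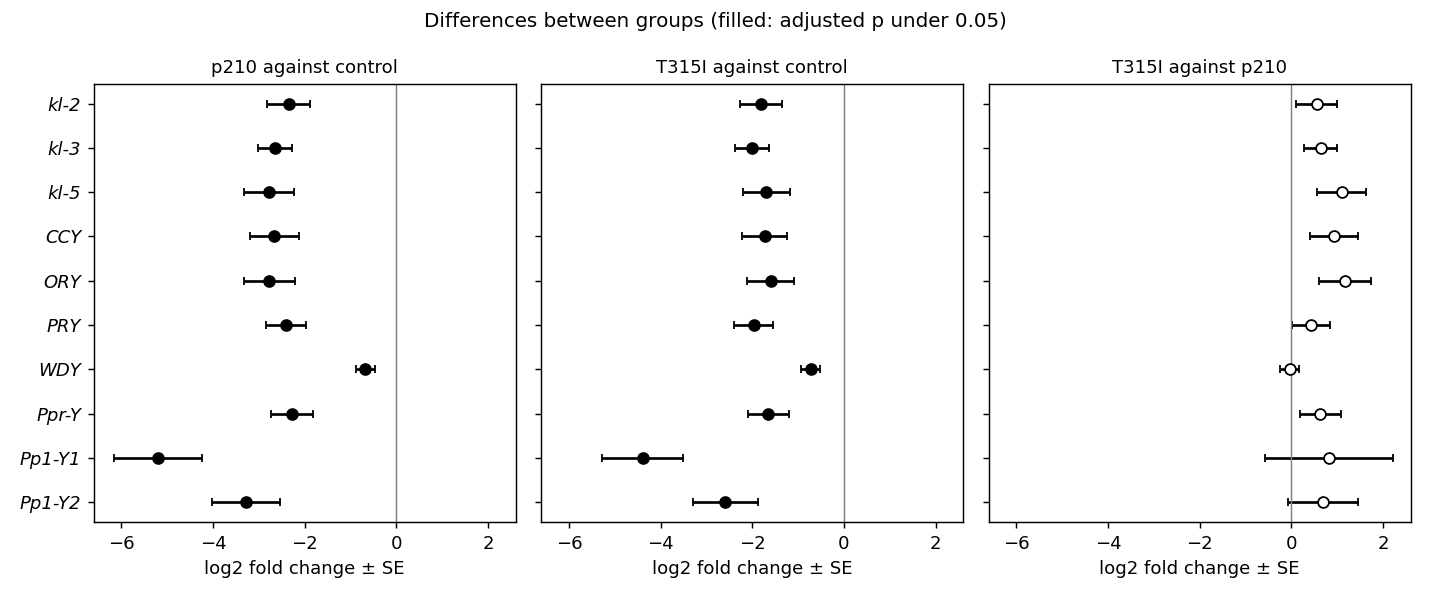
Log2 fold change ± SE of each gene from the edgeR fit over all 9 libraries, in 3 panels (each transgene group against the control, then T315I against p210); filled points passed an adjusted p of 0.05. All 10 genes are left of 0 in both comparisons with the control, WDY nearest to 0 at -0.68 and -0.72, and no gene is filled in the third panel.

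As a set, 10 of 10 genes were called lower in p210 and 10 of 10 in T315I, where 30.3% and 28.7% of the 9978 genes tested were called lower. The median log2 fold change of the 10 genes was -2.66 in p210 and -1.77 in T315I, beside 0.05 and -0.02 over all tested genes. In p210 all 10 genes had every library below every control library (30.4% of all tested genes did), and in T315I 8 of 10 did (27.8% of all tested genes), kl-5 and Pp1-Y2 being the exceptions. Pp1-Y1, Pp1-Y2 and ORY passed the filter on low counts through the control libraries, so a difference in that direction was built into their being tested. Each of the other 7 genes was above the filter's level in at least 5 of the 6 transgene libraries. Both comparisons share the control libraries and are not independent of each other. Without control replicate 2, which had the highest level of 10 of 10 genes, the counts of called genes were 9 in p210 and 4 in T315I (kl-2, kl-3, PRY and Pp1-Y1). Leaving out any 1 T315I library left 6 called in T315I. The lost calls were CCY, ORY, WDY and Ppr-Y without replicate 1, kl-5, CCY, Ppr-Y and Pp1-Y2 without replicate 2, and kl-5, CCY, ORY and Pp1-Y2 without replicate 3 (edgeR adjusted p = 0.0504 to 0.0933). The share of all tested genes called without a given library is not given here. Lost calls, here and in the gene lists below, are therefore not read as particular to those genes.

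Between the transgene groups none of the 10 genes was called by edgeR, 0 of them at an unadjusted p under 0.05 (3.49% of all tested genes were) and 0 by DESeq2 or limma-voom, in a comparison in which 1 of all 9978 genes (0.0100%) was called. 9 of 10 genes had a positive log2 fold change of T315I against p210. kl-3, kl-5, CCY and Ppr-Y had every T315I library above every p210 library, as did 9.57% of all tested genes. For kl-3 the difference was 0.64 with a 95% interval of -0.17 to 1.45, and for kl-5 1.10 with an interval of -0.10 to 2.29. WDY was at -0.04, with an interval of -0.51 to 0.42. The intervals leave room for T315I levels of these genes above those in p210, and a missed threshold does not show equal levels.

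Setting each gene against kl-3 within the same library removes depth and scaling from the comparison. Per 100 counts of kl-3, WDY had 12.8, 5.37 and 9.89 counts in control replicates 1 to 3, 31.4, 34.6 and 25.8 in p210, and 18.3, 19.3 and 19.6 in T315I. All p210 libraries were above all T315I libraries, and these above all control libraries. The means were 9.36 ± 3.74, 30.6 ± 4.44 and 19.1 ± 0.637 (SD, n = 3 each). Each pair of groups gave a two-sided exact permutation p = 0.1, the smallest that 3 against 3 libraries allow. WDY was singled out after its values were seen, among 9 genes compared with kl-3 in 3 pairs of groups, so that no adjusted p could pass a threshold.

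Most of the other genes overlapped between groups relative to kl-3. Per 100 counts of kl-3, kl-2 had a control mean of 10.9 ± 2.37, a p210 mean of 13.7 ± 3.69 and a T315I mean of 13.2 ± 5.93, with overlapping groups. In the same order kl-5 had 10.5 ± 3.17, 10.5 ± 2.97 and 14.7 ± 5.09, and PRY 2.94 ± 0.567, 3.35 ± 0.348 and 2.91 ± 0.46. kl-2, kl-5, PRY, ORY and Pp1-Y2 overlapped between all pairs of groups. CCY and Ppr-Y were higher relative to kl-3 in T315I than in the control with no overlap, by 1.21 and 1.29 times. Pp1-Y1 moved further than WDY and the other way, from 0.454 ± 0.159 per 100 counts of kl-3 in the control to 0.0457 ± 0.0791 in p210 (0.101 of the control) and 0.0765 ± 0.132 in T315I (0.169 of the control), with no overlap, but these transgene values rest on 1 and 2 counts. As a share of all counts of the 10 genes, kl-3 held 66.5 to 70.6% in the control, 57.5 to 60.0% in p210 and 56.9 to 64.9% in T315I, while WDY held 3.79 to 8.99%, 14.8 to 20.6% and 10.4 to 12.7%.

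**Figure D3:**
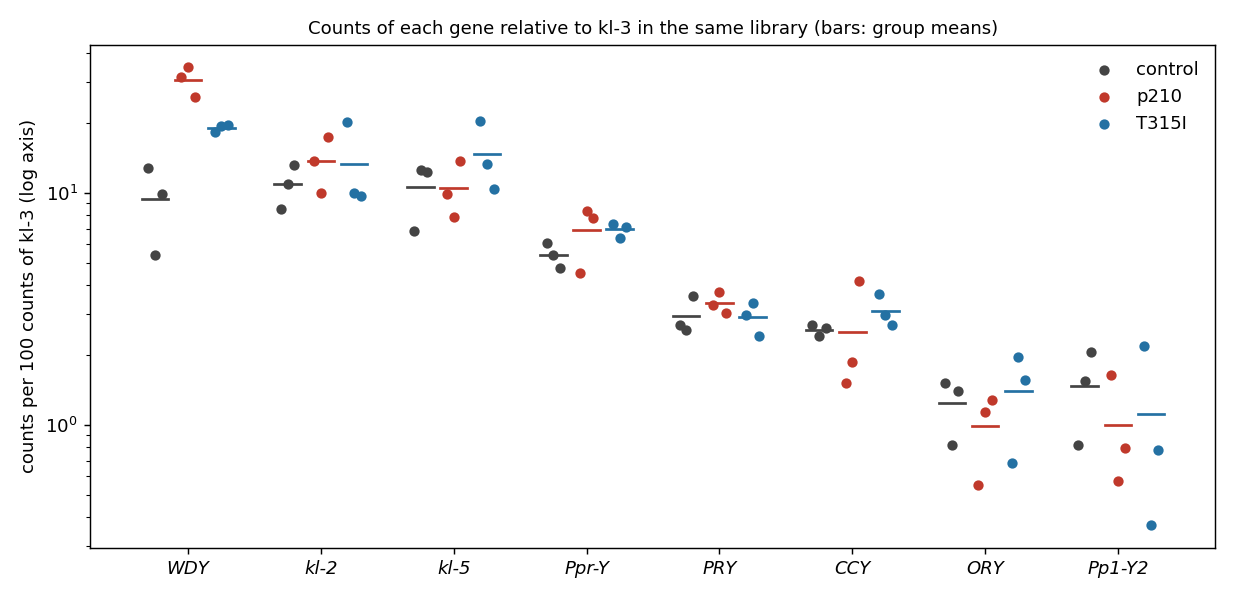
Counts of 8 of the genes per 100 counts of kl-3 in the same library (log axis), with points for libraries and bars for group means; Pp1-Y1, at 0 in 4 libraries, is left out. WDY separates into control (5.37 to 12.8), T315I (18.3 to 19.6) and p210 (25.8 to 34.6), whereas the groups of kl-2, kl-5 and PRY overlap.

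The order of levels depended on the length they were divided by. Per kb of exon, the control order ran from kl-3 (20.6 ± 13.2 CPM per kb) through Ppr-Y (8.96 ± 5.76) and WDY (6.59 ± 1.11) to Pp1-Y2 (3.42 ± 2.51), kl-5, kl-2, PRY, CCY, Pp1-Y1 and ORY (1.13 ± 0.318), and each gene's range overlapped that of the next. On the same exon scale in p210, WDY came first at 4.12 ± 0.821 CPM per kb and kl-3 second at 3.28 ± 0.298, and WDY was above kl-3 in 3 of 3 libraries. In T315I, kl-3 (5.11 ± 0.584), WDY (3.99 ± 0.576) and Ppr-Y (2.87 ± 0.244) followed each other with separate ranges. The next genes in both transgene groups, kl-2, kl-5, PRY, Pp1-Y2 and CCY, overlapped with their neighbours. Per kb of gene span, the intronless Pp1-Y2 came first and kl-3 second in all 3 groups, at 3.42 ± 2.51 and 1.26 ± 0.81 CPM per kb in the control, 0.344 ± 0.162 and 0.201 ± 0.0182 in p210, and 0.573 ± 0.424 and 0.313 ± 0.0358 in T315I. The ranges of this pair were separate in p210 and overlapped in the other groups. WDY was at 0.104 ± 0.0176, 0.0652 ± 0.013 and 0.0632 ± 0.00912 CPM per kb of span, below kl-3 in each group, so that its place above kl-3 in p210 held per kb of exon and turned per kb of span. Pp1-Y1 followed kl-3 in the control on the span scale (1.19 ± 0.375), while Ppr-Y (0.0617 ± 0.0397) and ORY (0.0549 ± 0.0154) came last and overlapped.

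Other genes annotated on the Y chromosome were mostly not measurable. Of 103 in the table, 44 were at 0 in all libraries and 7 were tested, of which 6 were called lower in p210 and 4 in T315I. For 5 of the 7 the filter on low counts was passed through the control libraries, so that a lower level was built into their being tested, and the counts of calls support nothing. The summed level of all 103 was 29.0 to 48.1 CPM in the control, 3.33 to 9.73 in p210 and 6.33 to 11.7 in T315I, with the control libraries above all others. FDY, which arose from a copy of an autosomal gene and can share reads with it, had 19, 75 and 101 counts in the control against 8 to 28 in a transgene library, with log2 fold changes of -2.43 in p210 and -2.22 in T315I (edgeR adjusted p = 0.00376 and 0.00859). ARY, an aldo-keto reductase gene, had 11, 80 and 87 counts in the control against 8 to 27 in a transgene library, and was lower in p210 (edgeR adjusted p = 0.00227) and in T315I (-2.01, edgeR adjusted p = 0.0133). Su(Ste):CR42430 is a copy of the Suppressor of Stellate repeats, which give rise to small RNAs in the testis. It had 27, 37 and 61 counts in the control against 4 to 22 in a transgene library; as a repeat it is uncertain as a single gene.

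Testis genes on other chromosomes were lower in the same libraries. Of 16 listed regulators of the spermatocyte program in the table, 15 were tested, of which 14 were called lower in p210 and 13 in T315I, with medians of -2.19 and -1.70. Of the 15, 1 passed the filter through the control libraries, and without control replicate 2 the counts were 13 and 10. Among them, bol (boule), a regulator of meiotic entry, had 175, 1183 and 1022 counts in the control and 211 to 438 in the transgene libraries (-2.19 and -1.70, edgeR adjusted p = 0.00362 and 0.0137). tbrd-2, a testis bromodomain gene, had 141, 756 and 893 counts in the control against 57 to 179 in a transgene library (-3.56 and -2.82). The phosphatase gene twe, which acts at the entry into meiosis, was at -1.73 and -1.43.

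Of 23 listed genes of spermatids and sperm in the table, whose transcripts are mostly made earlier in spermatocytes, 18 were tested and 18 were called lower in each transgene group, with medians of -2.96 and -2.09. S-Lap1, S-Lap3 and loopin-1, aminopeptidase-like genes of the sperm, were the most abundant. S-Lap1 had 1352, 12863 and 7848 counts in the control, 968 to 1607 in p210 and 2000 to 3191 in T315I (-3.13 and -2.20, edgeR adjusted p = 0.00181 and 0.00928). S-Lap3 was at -3.16 and -2.21 and loopin-1 at -3.04 and -2.14. Of 6 dynein heavy chain genes on other chromosomes, which also serve sensory cilia, 4 were lower in each group, among them Dhc98D (-2.65 and -1.87), Dhc36C (-3.11 and -2.02) and Dhc62B (-1.64 and -1.09). CG3339 (0.66 and 0.58) and Dhc93AB (-0.11 and -0.33) were not called in either group. The summed level of the 6 genes was 119 CPM in control replicate 1, below T315I replicate 1 (122.7 CPM). Without control replicate 2 the dynein list had 0 lower calls in T315I and the spermatid list 13.

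All 5 genes listed for handling transcripts of the Y-linked genes were lower in both groups, but without control replicate 2 the counts were 4 in p210 and 3 in T315I. heph, an RNA-binding protein gene needed for their expression in spermatocytes, was at -1.05 and -1.04 (edgeR adjusted p = 0.0146 and 0.0194), and Rb97D, which encodes a protein that binds a loop of the Y chromosome, at -0.51 and -0.66. Of these 5 genes bol also belongs to the spermatocyte list, and heph is active in many tissues.

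Set against other gene lists in the same library, the 10 genes together overlapped between p210 and the control for every list compared (spermatocyte regulators, spermatid genes, other dyneins, fat body and muscle). Per 100 counts of the spermatocyte regulators, the 10 genes together had 127.4, 127.3 and 65.9 counts in the control, 72.0, 94.7 and 70.6 in p210 and 72.6, 112.0 and 100.1 in T315I. Per 100 counts of the spermatid genes they had 20.5, 11.6 and 9.31 in the control, 17.1, 25.2 and 14.6 in p210 and 10.8, 18.8 and 15.5 in T315I. All pairs of groups overlapped on both scales, and the two-sided exact permutation p was 0.4 for p210 against the control on each scale and 0.6 and 0.9 for T315I against the control. Per 100 counts of fat body markers the mean of the control was 0.686 ± 0.432, that of p210 1.49 ± 0.399 and that of T315I 1.18 ± 0.198, again with overlap (two-sided exact permutation p = 0.2 for each transgene group against the control). Per 100 counts of muscle markers the mean of the control was 17.7 ± 8.84, that of p210 21.7 ± 3.32 and that of T315I 27.6 ± 1.45. There p210 overlapped the control (two-sided exact permutation p = 0.7), while T315I lay above both without overlap (p = 0.1, the smallest possible). The overlap is thus not particular to the testis lists, and with 3 libraries a group it cannot show equal ratios.

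The control libraries differed in the lists of several tissues. The spermatid genes summed to 1103, 6087 and 3280 CPM in control replicates 1 to 3 and the spermatocyte regulators to 177, 553 and 464, with replicate 1 lowest and replicate 2 highest, as for the 10 genes (225.7, 704 and 305). Fat body markers summed to 101654, 65376 and 40218 CPM in the same order, muscle markers to 3003, 3028 and 1366, midgut markers to 422, 314 and 217, and cuticle markers to 189.5, 189.5 and 64.3. Replicate 1 was lowest for 9 of the 10 genes, the exception being WDY, and replicate 3 was lowest for the fat body, muscle, midgut and cuticle lists. The order of 3 libraries was not tested.

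Markers of other larval tissues moved with the groups as well. Of 10 fat body markers, such as the storage protein gene Lsp1gamma, 10 were lower in p210 and 9 in T315I, with summed levels of 40218 to 101654 CPM in the control, 4491 to 6475 in p210 and 8364 to 12509 in T315I. None was at 0. Of 13 muscle markers 12 were tested and 12 were lower in each group (1366 to 3028, 336 to 377 and 380 to 448 CPM), with 1 listed at 0. Among the 12, 1 passed the filter through the control libraries. Midgut and cuticle markers were lower in 6 and 5 of 9 and 6 tested in p210, and in 7 and 5 in T315I. The filter was passed through the control libraries by 5 of the 9 midgut and 1 of the 6 cuticle markers. Without control replicate 2 the fat body, muscle, midgut and cuticle lists had 10, 12, 6 and 5 lower calls in p210. In T315I these lists then had 9, 12, 6 and 5. The listed plasmatocyte markers, genes of the main phagocytic hemocyte, summed to 27373 to 32038 CPM in the control, 32944 to 50706 in p210 and 37701 to 48249 in T315I, and of 12 none was called lower and 5 were called higher in each group (He, NimC1, Ppn, Sr-CI and drpr). With the summed plasmatocyte counts as the scale, 2 of 12 were called lower and 4 higher in each group. The share of all tested genes called higher is not given here. Counts of higher calls, in this list and those below, are therefore not read as a result about the listed genes. The part of these tissues and of depth in the result was not tested.

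**Figure D4:**
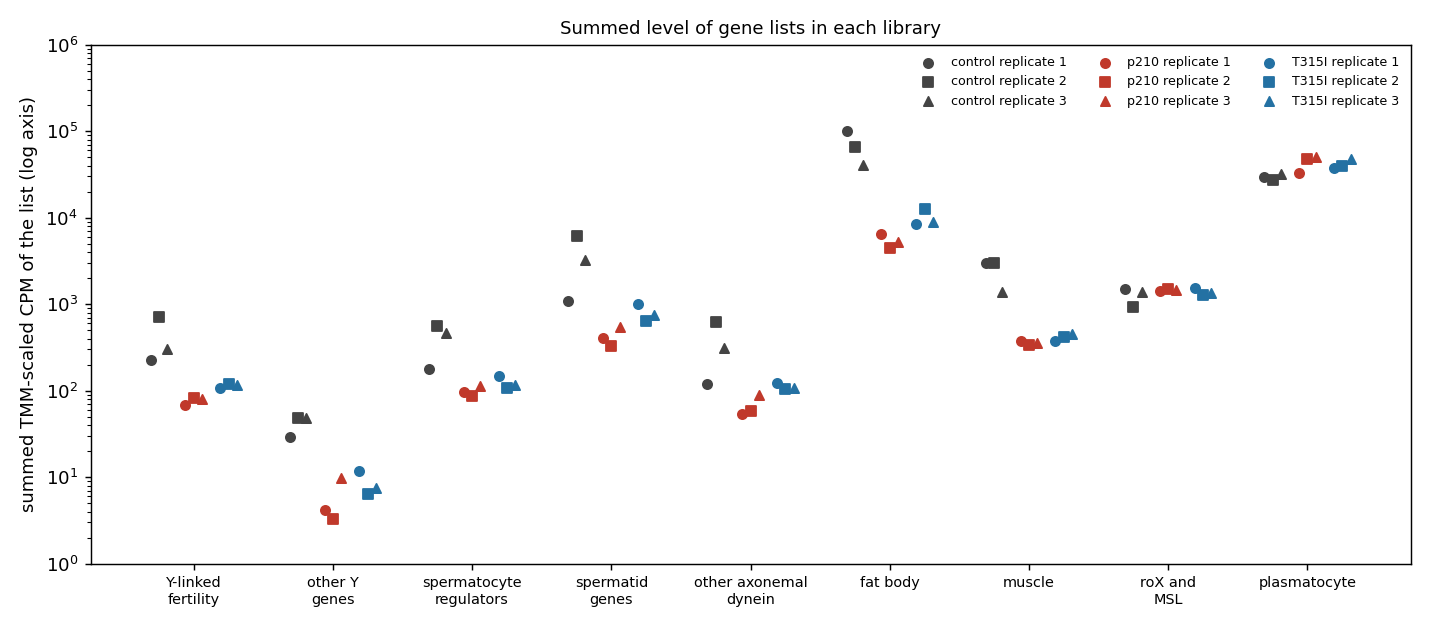
Summed TMM-scaled CPM (log axis) of gene lists in each library, with colour for the group and marker shape for the replicate number. The Y-linked fertility genes, other Y genes and muscle and fat body lists lie higher in all control libraries than in all transgene libraries, while the roX and MSL list (924 to 1527 CPM over all libraries) overlaps between groups.

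The listed roX and MSL genes were not called lower with TMM scaling. Levels of the MSL genes are not read here as a sign of male cells. The noncoding RNA roX1 (lncRNA:roX1) coats the X chromosome of males with the MSL proteins and is made in male cells of many tissues. Its level was 894 ± 287 CPM in the control, against 1038 ± 49.3 for p210 and 998 ± 123 for T315I (0.22 and 0.16, edgeR adjusted p = 0.438 and 0.586), and roX2 (lncRNA:roX2) at 163 ± 37.4, 163 ± 26.7 and 133 ± 24.0 CPM. Of the 7 roX and MSL genes none was called lower, and msl-1 was higher in both groups (0.47 and 0.54, edgeR adjusted p = 0.00663 and 0.00643). Scaled to the plasmatocyte markers in place of all genes, which moved the median of all tested genes to -0.46 and -0.50, roX1 was at -0.29 and -0.30, roX2 was called lower in T315I (-0.81, edgeR adjusted p = 0.0352), msl-1 was not called, and all 10 Y-linked fertility genes were called lower. Because this scale moved genes down in general, the calls of the 10 genes under it add no support. Of the 7 sex determination genes, 1 was called lower and 3 higher in p210, and 1 lower and 1 higher in T315I; with scaling to the plasmatocyte markers 1 was lower and 0 higher in each group. The gene called lower was dsx (doublesex), which directs somatic sexual development in both sexes, at -2.21 and -1.95 (edgeR adjusted p = 0.000701 and 0.00192) and at -2.73 and -2.44 with plasmatocyte scaling. Sxl, the switch gene of female development, was at 0.57 and 0.16 (edgeR adjusted p = 0.0393 and 0.55), tra2 at 0.38 and 0.25, and fru at 0.72 and 0.33.

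Germline genes that are not specific to spermatocytes were mixed. Of 13 tested, 5 were lower and 4 higher in p210, and 6 were lower and 2 higher in T315I. Among the 13, 1 passed the filter through the control libraries. The most abundant were tud (0.24 and 0.31, not called), AGO3 of the piRNA pathway (1.34 and 0.81, edgeR adjusted p = 0.00287 and 0.0303) and krimp (0.72 and 0.57, edgeR adjusted p = 0.0278 and 0.0744). With scaling to the plasmatocyte markers 1 was called higher in p210 and 0 in T315I, and 5 and 6 were called lower. The values that follow are on that scale, which moved genes down in general, unlike the TMM values of tud, AGO3 and krimp. Genes lower in both groups were vas (-4.05 and -3.26), ovo (-3.33 and -3.57), orb (-3.28 and -2.40), bgcn (-3.25 and -2.19) and piwi (-2.13 and -1.68). In T315I qin was also called lower (-1.97). Without control replicate 2, 5 were lower and 1 higher in p210, and 3 were lower and 0 higher in T315I.

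The genes nearest in pattern to the 10, by the root mean square difference between centred log2(CPM + 1) profiles over the 9 libraries, were Optix (0.125), Sytbeta (0.138), Ptr (0.141), f-cup (0.143), Art9 (0.146), PH4alphaMP (0.147), qtc (0.154) and rib (0.158), against a median of 0.894 over 5875 candidates. None of the 8 lies on the Y chromosome. f-cup, known as a gene transcribed late in spermatids, had 161, 809 and 599 counts in the control against 244 to 361 in a transgene library (-1.70 and -1.30). The homeobox gene Optix had 14, 67 and 48 counts and 8 to 22 (-2.97 and -2.04). Among the 10 genes themselves the distance from their mean profile was smallest for PRY (0.144) and CCY (0.183) and largest for WDY (0.520). The 1 added to each CPM shrinks differences of genes near 1 CPM, so these distances and the ranking depend on level as well as pattern.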

How the data were processed

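The authors deposited raw counts per gene, not normalized, in 1 table with a column per library. FastQC 0.11.8, HISAT2 2.1.0 and featureCounts 2.0.1 with build dm6 are named in the submitters' processing notes; for the annotation and the counting options, nothing is given in the sources used here. Each column was assigned by its group name and replicate number.

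Coordinates and exons came from assembly BDGP6.54, release 115 (dm6 coordinates), matched by symbol for 17553 of 17874 genes. The main tests used edgeR 4.0.16 (R 4.3.3). Genes were filtered by filterByExpr (9978 kept, all 10 members among them), scaled by TMM and fitted by robust quasi-likelihood, all 9 libraries together, with a mean for each group. Tests were two-sided, with Benjamini-Hochberg adjustment over all tested genes and a threshold of 0.05. SEs are the absolute log2 fold change over the square root of F. The procedure was tested on simulated data. The spread behind each p-value is that of the replicates the labels call biological. No libraries were identical (chi-square per degree of freedom between replicates 13.6 to 91.7). At 3 counts the floor was 0.165 to 0.556 CPM; floors and intervals cover counting error only.

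The members and gene lists were chosen with earlier results of these data known. Besides the members, the 3 most abundant genes of each list and the 8 nearest profiles were to be named; the abundant midgut, cuticle, muscle and plasmatocyte genes are given as sums. The listed genes rye, Mst35Ba and Mst35Bb were not analysed here. Alternatives were RLE, upper-quartile and plasmatocyte scaling, DESeq2 1.42.0, limma-voom (limma 3.58.1), no filter, 5 CPM in 3 libraries, a replicate block, the 2 groups alone, thinning to 5.40 M counts and each library left out.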

Additional observations from a re-analysis of the deposited data

How the results depend on the processing

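The direction of all 10 genes against the control held in every alternative run, and 25 of 370 gene results there lost the call. These were 3 of 185 results in p210 and 22 of 185 in T315I. With 5 CPM required in 3 libraries, 5 members were tested and 5 called in p210 and 5 in T315I, because fewer genes entered. Ppr-Y passed this filter through the control libraries, so a lower level was built into its being tested there. Leaving out each library gave 9 to 10 called members in p210, 4 to 10 in T315I and 0 between T315I and p210. Replicate numbers did not pair the libraries (correlations of same-numbered deviations from -0.378 to 0.190). With the replicate block the counts were 10, 9 and 0, kl-5 in T315I being the call lost (-1.48, edgeR adjusted p = 0.0762). It was also lost with the 2 groups alone (0.061), and CCY and ORY in T315I were lost in thinned libraries (0.0538 and 0.0677). The causes were not tested. Between T315I and p210, where nothing was called, signs turned for WDY with upper-quartile scaling (0.007), with the 5 CPM filter (0.018) and without p210 replicate 2 (0.128) or T315I replicate 1 (0.071), the range over left-out libraries being -0.149 to 0.128. They also turned without T315I replicate 1 for Pp1-Y1 and Pp1-Y2, which ranged from -1.67 to 2.44 and from -0.044 to 1.16 (few counts, so that the prior count bears on the fitted values). Plasmatocyte scaling moved CCY and Ppr-Y in p210 to -3.29 and -2.90. Depth limits what can be read from Pp1-Y1, at 0 to 2 counts in each transgene library.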
